A study of Mus musculus with 8 samples.

Results

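Transcript levels of 10 genes of the Z-disc and of mechanical stress were examined in infarcted mouse hearts: Ankrd1, Csrp3, Xirp1, Xirp2, Ldb3, Actn2, Tcap, Myoz2, Nexn and Pdlim5. A spot belonged to a gene when the platform annotation gave that gene as its single symbol, which yielded 12 of 33600 spots for 8 of the 10 genes. Xirp2 and Nexn had no such spot, and the 1 spot of Tcap had no value on any array, so 11 spots held values and 10 could be tested. The infarcted group was 4 C57Bl/6 mice aged 8 to 10 weeks with a permanent ligation of the left coronary artery's descending branch. The sham control group was 4 C57Bl/6 mice of the same age that had the same operation, with the suture passed and left untied. RNA came from the whole heart, so infarct, border and remote muscle were measured together, and the time from operation to collection is not stated in the labels. Each heart had its own array, with heart RNA in the red dye and a pool of adult mouse tissues, heart among them, in the green dye on every array.

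The Z-disc is the boundary between neighbouring sarcomeres, where alpha-actinin ties the ends of the actin filaments together and the giant protein titin is anchored. It also holds adaptor proteins that take part in sensing stretch and in signalling to the nucleus. In heart muscle several of these proteins are known from inherited cardiomyopathy, and Ankrd1 is widely used as a transcript that responds to load.

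Promoters are shown for the 3 genes on which the results turn most, Ankrd1 (opposite in direction to most bright spots) and Csrp3 and Myoz2 (lower on all infarcted arrays). Each window runs from 250 bases before to 50 bases after the annotated start, on the gene's own strand, from RefSeq build GRCm38.p6. The windows lie at chr19:36119795-36120094 for Ankrd1, chr7:48848002-48848301 for Csrp3 and chr3:123034938-123035237 for Myoz2, all on the minus strand. Capitals mark every match on either strand to TATAAA, the TEAD motif CATTCC, the GATA motif AGATAA, the NKX motif AAGTG, the MEF2 motif or the CArG box of serum response factor, and no matches overlapped in these windows.
Ankrd1: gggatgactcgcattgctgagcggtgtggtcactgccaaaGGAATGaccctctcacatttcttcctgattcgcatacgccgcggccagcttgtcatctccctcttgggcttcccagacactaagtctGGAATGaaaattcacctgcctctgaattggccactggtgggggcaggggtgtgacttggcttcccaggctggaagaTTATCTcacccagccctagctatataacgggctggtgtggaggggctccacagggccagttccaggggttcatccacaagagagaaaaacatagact
Csrp3: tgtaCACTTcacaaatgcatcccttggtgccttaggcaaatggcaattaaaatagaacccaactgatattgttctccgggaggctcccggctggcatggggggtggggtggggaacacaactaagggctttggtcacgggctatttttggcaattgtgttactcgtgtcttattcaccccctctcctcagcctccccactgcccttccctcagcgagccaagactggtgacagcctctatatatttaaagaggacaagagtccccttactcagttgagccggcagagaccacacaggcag
Myoz2: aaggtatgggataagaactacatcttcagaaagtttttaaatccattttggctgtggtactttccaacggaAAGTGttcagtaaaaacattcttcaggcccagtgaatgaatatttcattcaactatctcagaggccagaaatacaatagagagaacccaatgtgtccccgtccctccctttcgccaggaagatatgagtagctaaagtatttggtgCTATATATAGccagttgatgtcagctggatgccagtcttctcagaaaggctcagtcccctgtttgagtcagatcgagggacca
Ankrd1 held 2 matches to CATTCC and 1 to AGATAA, both read on the reverse strand of the window, and these motifs occurred in 14.7% and 11.2% of all 32851 promoter windows. Csrp3 held 1 match to AAGTG, a motif present in 46.4% of all windows. Myoz2 held 1 match to AAGTG and 1 to the MEF2 motif, and a MEF2 match was present in 3.19% of all windows. The table had 10 windows for 7 of the 10 genes. Among the others, the overlapping pair of Ldb3 windows shared a CArG box match (1.63% of all windows). Xirp2 had a MEF2 match and an AAGTG match, and 1 Pdlim5 window had a TATAAA match (13.6%). The other Pdlim5 window, another Csrp3 window and the Actn2 window held no match. A match is a run of letters and not a measured binding site.

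All levels below are log2 signals relative to the median spot of the block of 700 spots that held the spot, so 0 is the median spot. Values were present for 21916 to 23655 spots on the infarcted arrays and for 19704 to 24819 on the sham control arrays. The deposited values could be turned back into whole scanner signals from 42 to 65466, which shows that they hold 1 channel and not a ratio. Which channel they hold is not settled, and the red heart channel is assumed throughout. Heart muscle genes were bright, but the pool contains heart too, so this does not decide it. If the values were those of the green channel, each difference between infarcted and sham control arrays would compare readings of the shared pool and not heart RNA. Some transcripts of other tissues in the reference pool were also above the median. An example is Prm2, a protamine of sperm, at 2.46 ± 0.33 on infarcted arrays and 4.15 ± 0.35 on sham control arrays (SD, n = 4 each). Of 33 tested spots of pool-tissue markers, a list chosen after the values were seen, 28 had a negative and 5 a positive change and 10 were lower on all infarcted arrays. Over all tested spots of the array, 56.8% had a negative change and 6.33% were lower on all infarcted arrays. The median change of the pool-tissue markers was -1.02, and Prm2 passed the test over all spots (-1.69 ± 0.26, SE, limma adjusted p = 0.0265). That call was lost in 9 of 17 alternatives, among them quantile normalization, loess, the replicate block and 6 of the 8 arrays left out (adjusted p 0.0138 to 0.112 over the 17). Summed over the 30 spots with 8 values, these markers stood at 129.6 to 166.8 block medians on infarcted arrays and 164.7 to 450.4 on sham control arrays. The part of this signal in the results below was not tested.

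No spot of the Z-disc and stress genes passed the test. With limma across all 20561 tested spots, 0 of 10 had a Benjamini-Hochberg adjusted p under 0.05, where 0.764% of all spots did (13 or 0.0632% higher and 144 or 0.7% lower; after loess 20 higher and 81 lower). At an unadjusted p under 0.05 there were 4 of 10, where 12.5% of all spots were so. In 8 of the 10 spots the change was negative, with a median of -0.30, beside 56.8% negative and a median of -0.07 over all spots. The infarcted and sham control arrays did not overlap for 3 of 10 spots, 1 higher and 2 lower, where this held for 9.11% of all spots (2.79% higher, 6.33% lower). Differences are infarcted minus sham control and carry the fitted standard error (SE). In tissue measured in bulk, fewer cells of a type and less RNA per cell cannot be told apart.

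**Figure D1:**
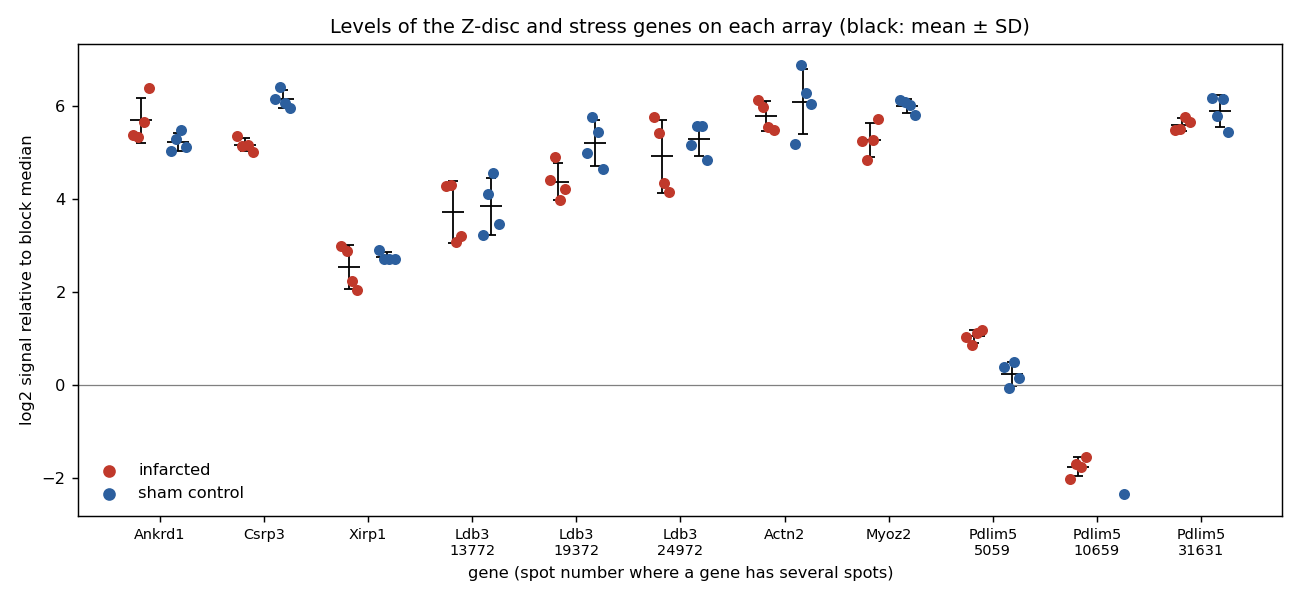
Level of each gene on each array, as log2 signal relative to the block median (vertical axis), with infarcted arrays in red left of sham control arrays in blue. Black marks give mean and SD, and the groups are apart for Csrp3, Myoz2 and Pdlim5 spot 5059 among the spots with at least 3 values in each group.

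Csrp3 (chr7:48830398-48848051, gene positions in GRCm38.p6), the muscle LIM protein, is an adaptor of the Z-disc whose loss in mice leads to dilated cardiomyopathy. Its levels were 5.36, 5.15, 5.17 and 5.03 on the infarcted arrays, against 6.16, 6.41, 6.08 and 5.97 on the sham control arrays. Every infarcted value lay below every sham control value, with a gap of 0.61 between the groups. The change was -0.98 ± 0.21 (SE, 95% interval -1.44 to -0.52, limma adjusted p = 0.0673), and the exact two-sided permutation p was 0.0286, the smallest that 4 against 4 arrays can give, as for every such spot below. In scanner signal the spot read 29874, 25197, 38951 and 16983 on the infarcted arrays, against 52234, 43886, 41428 and 41697 on the sham control arrays, again without overlap. Scanner signals here and below are not scaled for the brightness of an array. The share of all spots without overlap in them was not computed. The adjusted p was 0.0353 when only spots with a mean level above 0 were tested and 0.0377 without sham control replicate 4. After quantile normalization the change was -0.08 ± 0.22 (adjusted p = 0.929).

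Myoz2 (chr3:123006206-123035003), or calsarcin-1, binds alpha-actinin and the phosphatase calcineurin and is known in mice as a brake on calcineurin signalling. It stood at 5.25, 4.86, 5.28 and 5.73 on the infarcted arrays, against 6.13, 6.10, 6.02 and 5.80 on the sham control arrays. The groups were apart, by 0.08. The change was -0.74 ± 0.24 (SE, 95% interval -1.27 to -0.21, limma adjusted p = 0.22, exact permutation p = 0.0286). It stood at 0.13 ± 0.24 after quantile normalization and 0.19 ± 0.21 after loess, so the sign turned. The scanner signals did overlap, at 18348 to 34073 on infarcted arrays and 29735 to 43617 on sham control arrays.

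Ankrd1 (chr19:36111965-36119844), the cardiac ankyrin repeat protein, sits on titin in the I-band and in the nucleus and is induced by stretch. The infarcted arrays read 5.39, 5.34, 5.67 and 6.38, and the sham control arrays 5.04, 5.29, 5.49 and 5.12. Infarcted replicate 4 was the highest of all, and the infarcted replicates 1 and 2 lay below the highest sham control value. The change was 0.46 ± 0.27 (SE, 95% interval -0.15 to 1.07, limma adjusted p = 0.547), a fold of 1.38, and 0.23 without infarcted replicate 4. In unscaled scanner signal the groups did not overlap, with 30925, 24548, 43978 and 32590 on infarcted arrays against 15834, 17476, 24108 and 20072 on sham control arrays. The lowest infarcted signal, 24548, was close to the highest sham control signal, 24108, and the scaled levels overlapped. After quantile normalization the change was 1.26 ± 0.25 and after loess 1.34 ± 0.26, and neither passed (adjusted p = 0.0897 and 0.0597).

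**Figure D2:**
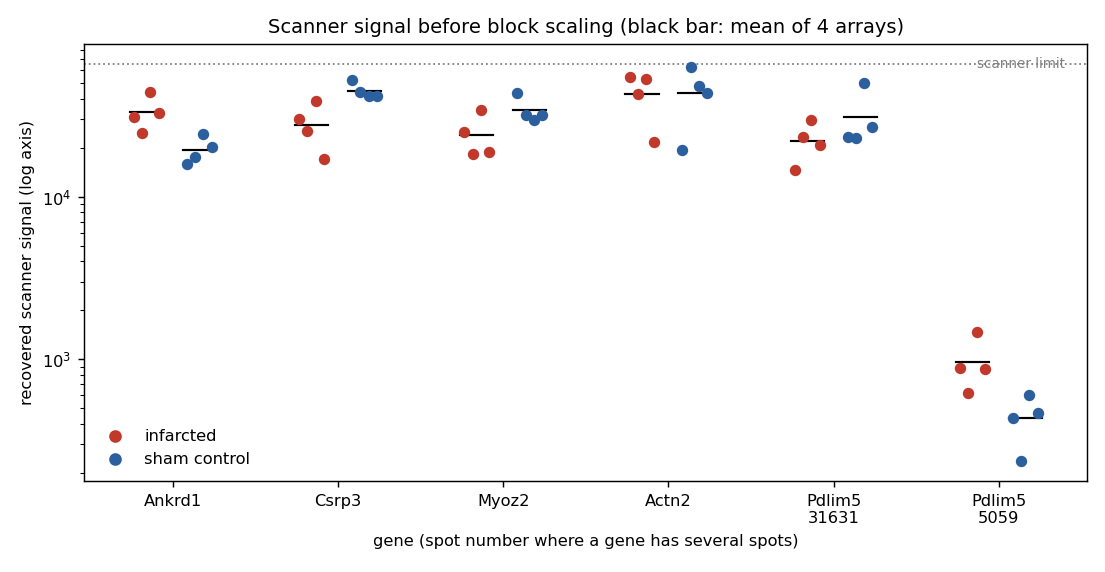
Recovered scanner signal on a log axis for 6 spots, infarcted arrays in red left of sham control arrays in blue, with the mean of 4 arrays as a black bar and the 16-bit limit of the scanner as a dotted line. In this unscaled signal Ankrd1 and Pdlim5 spot 5059 lie higher and Csrp3 lower on all infarcted arrays. The share of all spots without overlap in it was not computed.

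Pdlim5 (chr3:142239585-142395719), a PDZ and LIM protein also called ENH, holds protein kinase C and other partners at the Z-disc. It had 3 spots, of which 10659 and 31631 carry 1 transcript accession in the annotation and 5059 another. Spot 5059 read 1.04, 0.87, 1.13 and 1.19 on the infarcted arrays, against 0.39, -0.07, 0.50 and 0.15 on the sham control arrays. All infarcted values were higher, and the change was 0.81 ± 0.22 (SE, 95% interval 0.33 to 1.30, limma adjusted p = 0.135, exact permutation p = 0.0286). It stayed at 0.84 after quantile normalization and 0.83 after loess. Spot 31631 was bright, at 5.48, 5.51, 5.77 and 5.66 on infarcted arrays against 6.17, 5.80, 6.16 and 5.45 on sham control arrays. There the groups overlapped, with a change of -0.29 ± 0.23 (95% interval -0.81 to 0.23, adjusted p = 0.674) that turned to 0.58 ± 0.22 after quantile normalization. Spot 10659 was dim and could not be tested, with -2.02, -1.69, -1.75 and -1.54 on the infarcted arrays and a single sham control value of -2.34. Averaging the 3 spots, as in a test per gene, gave -1.004 (adjusted p = 0.411), because the dim spot entered the mean of 4 infarcted arrays and of 1 sham control array. Over the 8 arrays spots 5059 and 31631 had a Pearson correlation of -0.27.

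Ldb3 (chr14:34526699-34590314), known as Cypher or ZASP, joins alpha-actinin at the Z-disc through its PDZ domain. It had 3 spots annotated to 1 accession, 5600 rows apart and at the same position within their blocks. Spot 13772 read 4.29, 4.31, 3.08 and 3.21 on infarcted arrays against 3.23, 4.12, 4.57 and 3.47 on sham control arrays. Spot 24972 read 5.76, 5.43, 4.35 and 4.16 on infarcted arrays against 5.16, 5.58, 5.58 and 4.84 on sham control arrays. The groups overlapped in both spots. Their changes were -0.13 ± 0.40 (95% interval -1.01 to 0.76) and -0.36 ± 0.38 (95% interval -1.22 to 0.49), with limma adjusted p = 0.932 and 0.764. Spot 19372 read 4.41, 4.92, 3.98 and 4.22 on infarcted arrays against 4.99, 5.78, 5.45 and 4.65 on sham control arrays. Its change was -0.84 ± 0.31 (95% interval -1.52 to -0.15, limma adjusted p = 0.289), and 1 infarcted array overlapped the sham control range. In all 3 Ldb3 spots infarcted replicates 1 and 2 lay above infarcted replicates 3 and 4. Over the 8 arrays the 3 pairs of Ldb3 spots had Pearson correlations of 0.61, 0.86 and 0.69, given as a description of spots that share arrays and a target gene.

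Actn2 (chr13:12269426-12340732), the alpha-actinin of heart muscle that links actin filaments in the Z-disc, read 6.13, 5.98, 5.56 and 5.48 on infarcted arrays. Its sham control arrays read 5.19, 6.88, 6.28 and 6.05. Sham control replicate 1 was below all infarcted values and the other sham control arrays were within or above them. The change was -0.31 ± 0.35 (SE, 95% interval -1.09 to 0.48, limma adjusted p = 0.789), -0.61 without sham control replicate 1 and -0.05 without sham control replicate 2. The sign turned to 0.59 after quantile normalization (adjusted p = 0.581) and 0.69 after loess (adjusted p = 0.48). Xirp1 (chr9:120013755-120023598), an actin-binding protein with Xin repeats found at intercalated discs, read 2.99, 2.90, 2.24 and 2.06 on infarcted arrays against 2.91, 2.72, 2.73 and 2.71 on sham control arrays. The groups overlapped and the change was -0.22 ± 0.26 (95% interval -0.81 to 0.36, limma adjusted p = 0.796). Infarcted replicates 1 and 2 lay above replicates 3 and 4 in 5 of the 10 tested spots (Xirp1, Actn2 and all of Ldb3) and below them in 4 (Ankrd1, Myoz2 and both of Pdlim5), with Csrp3 mixed. The share of all tested spots with such an order was not computed, so these counts only describe the arrays. For Tcap, or telethonin, which caps the end of titin, no level is given. Over the whole array 6147 of 33600 spots had no value on any array. Bright spots could lack values too: of 1073 spots whose signal exceeded 20000 on some array, 38 values were missing on infarcted arrays and 190 on sham control arrays. A spot without any value, as for Tcap, cannot be among these 1073, so the counts do not bear on it.

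**Figure D3:**
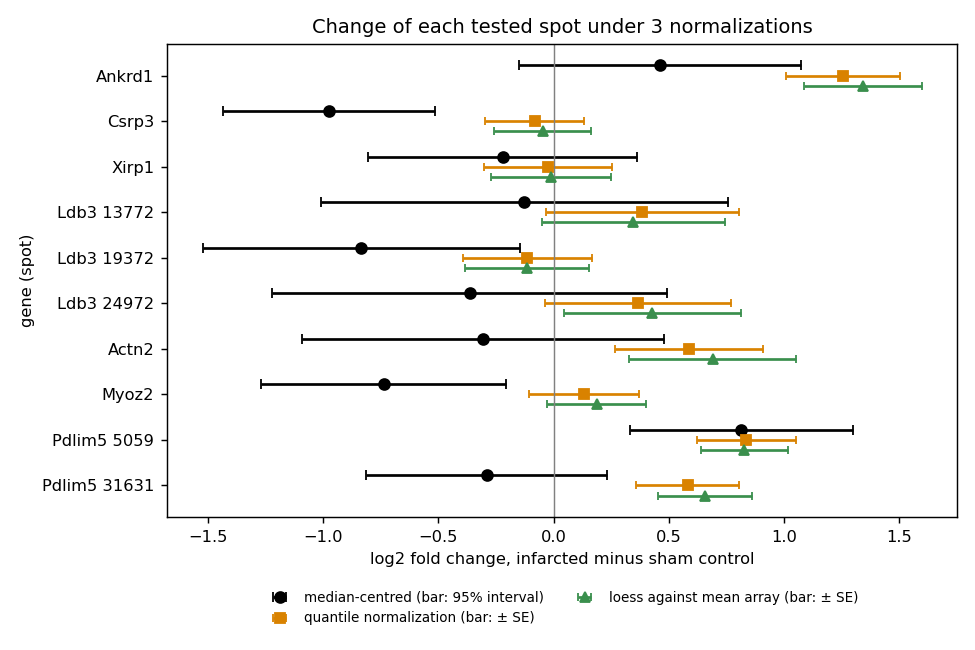
Log2 fold change, infarcted minus sham control, of the 10 tested spots with arrays centred on the median (circles, 95% interval), after quantile normalization (squares, ± SE) and after loess against the mean array (triangles, ± SE). With median centring 2 of 10 changes are above 0, and with either other normalization 7 of 10 are.

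Signal level moved with these changes. Among all tested spots with a mean level between 5 and 6, which hold Ankrd1, Csrp3, Myoz2, Actn2, Pdlim5 spot 31631 and Ldb3 spot 24972, the median change was -0.85 (quartiles -1.19 and -0.56, 374 spots). In that band 96.8% of changes were negative, and 52.4% of spots were lower on all infarcted arrays. Csrp3 at -0.98 and Myoz2 at -0.74 lay between these quartiles. Ankrd1 at 0.46, Pdlim5 spot 31631 at -0.29, Actn2 at -0.31 and Ldb3 spot 24972 at -0.36 lay above the upper quartile. Between levels 4 and 5 the median was -0.61 (quartiles -0.91 and -0.34, 786 spots), with Ldb3 spot 19372 at -0.84. Between 3 and 4, with Ldb3 spot 13772 at -0.13, it was -0.30, and between 2 and 3, with Xirp1 at -0.22, it was -0.12. Between 0 and 1 it was -0.01 (quartiles -0.26 and 0.26, 3962 spots), with Pdlim5 spot 5059 at 0.81. The 99th percentile of an array was 5.05 to 5.24 on infarcted arrays and 5.65 to 6.31 on sham control arrays. Quantile normalization and loess remove such a trend by construction, and the median of the band from 5 to 6 was then -0.01 and 0.01. Under them the 10 spots had median changes of 0.38 and 0.39, and 0 passed in either.

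**Figure D4:**
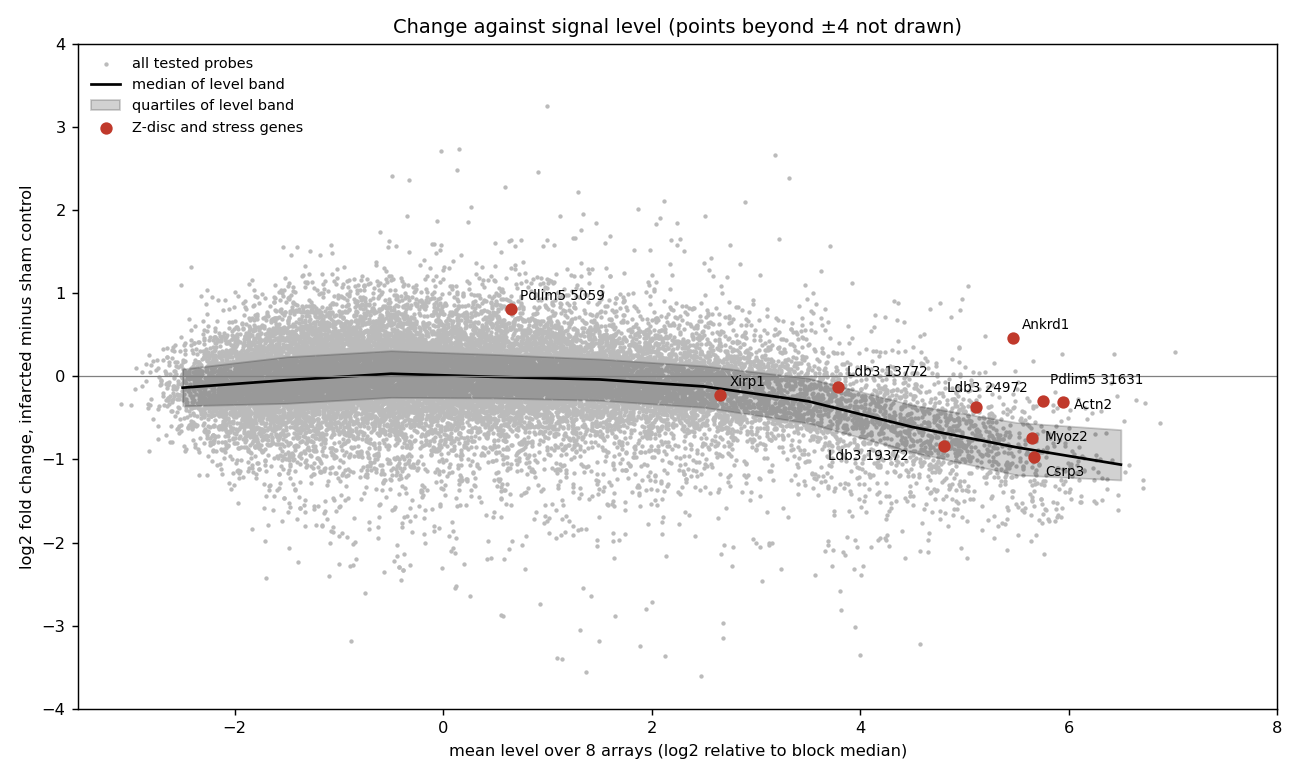
Log2 fold change, infarcted minus sham control, against mean level over 8 arrays for all tested spots (grey), with the median and quartiles of bands 1 unit wide (black line and shading) and the Z-disc and stress genes in red. Ankrd1 lies at 0.46 where the band median is -0.85, while Csrp3 and Myoz2 lie within the quartiles.

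Other genes of the Z-disc and of its signalling were taken as whole lists. Of 36 further Z-disc genes 23 were tested with 39 spots, and 0 passed (limma), 19 positive and 20 negative with a median change of -0.05. There 2 spots were higher and 5 lower on all infarcted arrays, where 2.79% and 6.33% of all tested spots were. The 3 genes with the smallest p were Cryab, Myot and Ttn. Cryab, the small heat shock protein alpha B-crystallin that protects desmin, had -1.51 ± 0.29 at spot 17405 (SE, limma adjusted p = 0.0597, 4 infarcted and 3 sham control values). It passed with a mean level above 0 (adjusted p = 0.039) and with eBayes trend and robust moderation (adjusted p = 0.047), and stood at -0.70 after quantile normalization and -0.52 after loess (adjusted p = 0.463 and 0.462). The other Cryab spot had -0.54 ± 0.21 at spot 23005 (adjusted p = 0.321). Myot, the actin-bundling protein myotilin, stood at 1.93 ± 0.39 on infarcted and 0.72 ± 0.52 on sham control arrays (SD, n = 4 each, adjusted p = 0.124). Titin, Ttn, had 7 tested spots, 5 with a positive and 2 with a negative change, from -0.91 ± 0.24 at spot 15210 (adjusted p = 0.134) to 1.27 ± 0.42 at spot 26620 (adjusted p = 0.227). The median of the 39 spots turned to 0.28 after quantile normalization and 0.27 after loess.

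Relatives of Ankrd1 gave 3 spots, all negative, with Ankrd23 at -0.41 ± 0.27 and -1.42 ± 1.04 and Ankrd2 at -0.36 ± 0.38 (SE, limma adjusted p = 0.587, 0.636 and 0.765). The second Ankrd23 value moved with single sham control arrays, to -0.69 and -0.64 without replicates 1 and 4 and -2.23 without replicate 3. Genes linked to the M-band, the centre of the sarcomere where thick filaments are tied, gave 4 negative spots with a median of -0.28. But 3 of the 4 were positive after quantile normalization and after loess (median 0.14 in both). Myom2 stood at -0.88 ± 0.57, Sqstm1 at -0.37 ± 0.27 and Nbr1 at -0.18 ± 0.24, and 0 of the 4 passed. Myom2 stood at -0.20 without infarcted replicate 4 and -0.17 after quantile normalization. Costamere and adhesion genes, which couple the Z-disc to the cell membrane, had 21 tested spots, 11 positive and 10 negative, with a median of 0.03 and 0 passed. That median was 0.30 after quantile normalization, 0.29 after loess and -0.12 with genes averaged over their probes. Dystrophin, Dmd, was positive in all 4 of its spots, between 0.26 ± 0.28 and 1.06 ± 0.31 (adjusted p = 0.777 and 0.178). Of these, 2 were higher on all infarcted arrays, where 2.79% of all tested spots were. Itga7, the laminin receptor of muscle, stood at -0.83 ± 0.32 and Sgcd, a sarcoglycan, at 0.52 ± 0.29.

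Calcineurin and NFAT genes, the pathway that Myoz2 restrains, gave 11 spots with 5 positive and 6 negative changes, a median of -0.05 (0.09 after quantile normalization, 0.07 after loess) and 0 passed. Nfatc2 stood at -0.68 ± 0.31 and -0.25 ± 0.25, the calcineurin regulatory subunit Ppp3r1 at -0.41 ± 0.24 and Nfatc4 at 0.39 ± 0.27 (SE, limma adjusted p = 0.412, 0.747, 0.528 and 0.607). Among 18 spots of transcription factors linked to stretch, 9 were positive and 9 negative, with a median of 0.04 (-0.16 without sham control replicate 4) and 0 passed. Tead1, a partner of the Hippo pathway coactivators, stood at 0.93 ± 0.30 and 0.64 ± 0.48, the cardiac factor Nkx2-5 at -0.62 ± 0.25 and the coactivator Mrtfb at 0.64 ± 0.32, 0.54 ± 0.31 and 0.12 ± 0.31.

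Markers of other cells were set beside these values, with 0 passing in each list named here (limma). Skeletal muscle, which also uses Ankrd1 and Csrp3, had markers with 10 of 14 tested spots positive and a median of 0.63. Of the 14 spots, 4 were higher on all infarcted arrays, where 2.79% of all tested spots were. Summed over 8 spots with all values the skeletal muscle markers stood at 4.8 to 7.8 block medians on infarcted arrays and 3.6 to 4.4 on sham control arrays. Of the 14 spots, 11 were below the block median in both groups. The named ones are those with the smallest p, and 4 of the 14 spots were negative. Neb, nebulin of the thin filament, had 1.07 ± 0.27, 1.1 ± 0.295 and 0.83 ± 0.26 at its tested spots (SE, adjusted p = 0.112, 0.151 and 0.211). Mylpf, a fast myosin light chain, had 1.55 ± 0.44 (adjusted p = 0.156), and Tnnt3 1.11 ± 0.42 and 0.465 ± 0.44 (adjusted p = 0.319 and 0.728). Macrophage markers had 14 of 16 spots positive with a median of 0.62, and over 15 spots they summed to 72.6 to 119.5 on infarcted arrays and 60.3 to 97.8 on sham control arrays. Gpnmb led them at 1.58 ± 0.31 (adjusted p = 0.0512), and passed in 2 of 16 alternatives. Cardiomyocyte markers could be tested at 9 of 18 spots, 5 positive and 4 negative, with a median of 0.02 and sums over 5 spots of 53.4 to 71.9 on infarcted and 50.4 to 77.8 on sham control arrays. After quantile normalization and loess 7 of these 9 were positive, with medians of 0.37 and 0.41. The 9 spots covered 6 genes, and Tpm1 alone had spots at 1.16, -0.32, 0.30 and 0.09. Mybpc3 stood at -1.11 ± 0.38 and Ckm at -0.69 ± 0.27 (SE, limma adjusted p = 0.27 and 0.324). Ckm was lower on all infarcted arrays, as were 52.4% of all tested spots between levels 5 and 6 and 67.2% between levels 6 and 7. After quantile normalization Mybpc3 stood at -0.31 and Ckm at 0.23. Fibroblast, endothelial and smooth muscle markers had medians of -0.02, 0.20 and -0.05 over 13, 15 and 11 spots. Their genes with the smallest p went both ways. Fibroblast spots stood at 1.76 (Postn), -0.615 (Col3a1) and -1.27 (Col1a1). Endothelial spots stood at -0.84 and 0.59 (Flt1), -0.73 and -0.64 (Eng), and 0.98, 0.70 and 0.205 (Pecam1). Smooth muscle spots stood at -0.73 (Acta2), 0.70 (Cnn1) and -0.59 (Cspg4). The fibroblast median turned to 0.12 and 0.14 and the smooth muscle median to 0.13 and 0.11 after quantile normalization and loess, and the endothelial median was -0.07 without sham control replicate 1 or 3 and -0.24 with genes averaged. The part of other cells in the values of the Z-disc genes was not tested.

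**Figure D5:**
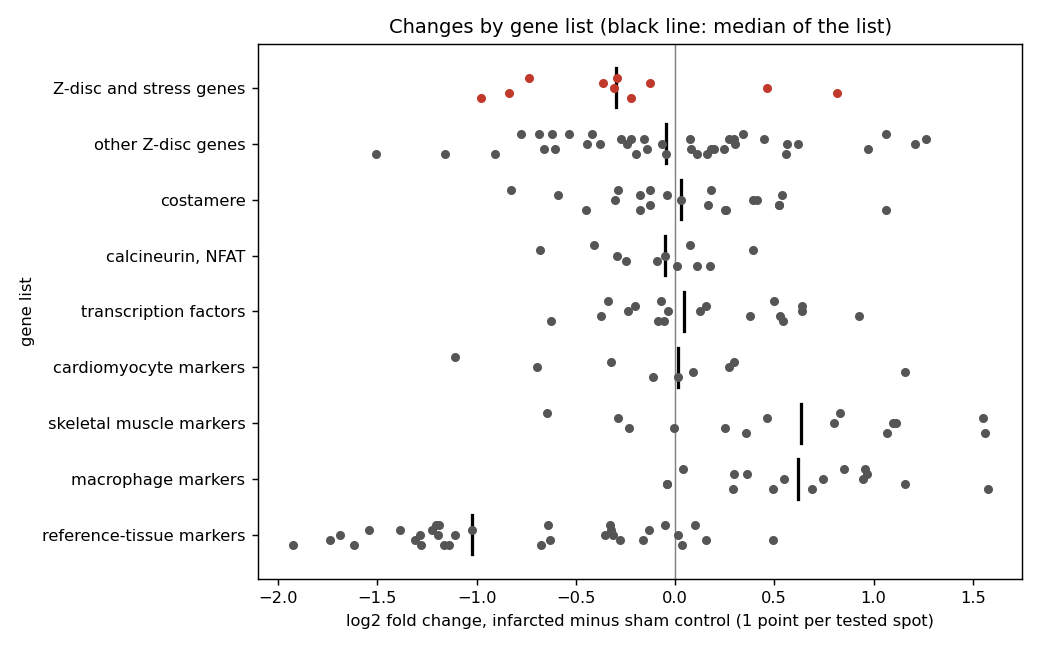
Log2 fold change, infarcted minus sham control, of each tested spot by gene list, with the list's median as a black line and the Z-disc and stress genes in red. The medians are -0.30 for the Z-disc and stress genes, 0.63 and 0.62 for skeletal muscle and macrophage markers and -1.02 for markers of tissues in the reference pool. After loess, in the same order, they are 0.39, 0.64, 0.715 and -0.62. The lists differ in signal level, and the changes drawn are not adjusted for it.

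The 4 genes whose spots followed Csrp3 most closely over the 8 arrays were Rpl31, Fstl3, Actb and Ptpn13. Their Pearson correlations were 0.993, 0.991, 0.987 and 0.981, chosen from 10804 named spots with all values. These are descriptions over 8 arrays in 2 groups that share dye, platform and scaling. Because Csrp3 itself was lower on every infarcted array, choosing its closest followers fixed the direction of theirs, so their changes support nothing further. The changes were -1.22 ± 0.22, -1.23 ± 0.23, -2.05 ± 0.28 and -1.34 ± 0.26 (SE, limma adjusted p = 0.043, 0.0458, 0.0186 and 0.053), and with the replicate block the adjusted p were 0.17, 0.172, 0.0766 and 0.167.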

How the data were processed

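Spotted arrays of 70-mer oligonucleotides were hybridised with 30 µg of RNA per dye, per the labels. The deposited log2 values are the signal of 1 channel over the block median, as tested on the file: in all 384 pairs of block and array 1 constant made every value whole within 0.001. The software, any background correction and any flags are not given in the sources used here. No dyes were swapped. Labels give no scan date or slide, so no batch could be set beside the groups. Spots were named from the platform annotation, with 18179 having 1 symbol, 87 several and 15334 none listed.

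Arrays were centred on their median, and spots with at least 3 values per group (20561) were fitted in limma 3.58.1 (lmFit, then eBayes; R 4.3.3), with Benjamini-Hochberg adjustment over all of them at 0.05. The 17 alternatives changed centring, normalization, filter, probe averaging, replicate block, eBayes trend or left out 1 array. The fit was run on simulated data with the same spread for every spot, no trend with level and changes larger than those of the members. That run therefore does not bear on the results above. P-values measure the spread between arrays with 1 heart each, where differences of heart, labelling and scan cannot be told apart. The number of arrays limits precision. Replicate arrays correlated at 0.873 to 0.958, so none was a copy. Members and lists were chosen with earlier results of these data known. Named were all members and, from each other list, the genes past the threshold or else the 3 with the smallest p. Up to 3 markers per cell type, not all printed, and the 4 genes most like the member with the smallest p were added. Pool-tissue markers were added after the values were seen. Gene names were checked by Entrez identifier against RefSeq genes of GRCm38.p6, where 18164 spots matched and 0 symbols changed.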

Additional observations from a re-analysis of the deposited data

Results flagged for a closer look

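In 6 of 140 groups of 4 arrays, over the spots named above, 1 array lay far from the other 3 of its group, and chance alone gives about 1 in 20. Xirp1 stood at 2.91 on sham control replicate 1 and between 2.71 and 2.73 on the other sham control arrays. Titin spot 9502 (Ttn) stood at 0.062 on infarcted replicate 2 and between -0.37 and -0.35 on the other infarcted arrays, and titin spot 15102 at 3.57 on sham control replicate 2 and between 5.09 and 5.27 on the other sham control arrays. Nfatc2 spot 21440 stood at -0.41 on infarcted replicate 1, where the others were between -1.23 and -1.12. Pecam1 spot 5429, an endothelial marker, stood at -0.044 on sham control replicate 1, against 2.14 to 2.42 on the others. Ttr spot 7890, a pool-tissue marker of the liver, stood at 3.80 on sham control replicate 2, against 4.26 to 4.35 on the others.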

How the results depend on the processing

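The count of 157 changed spots over the whole array became 35 with quantile normalization, 101 with loess against the mean array, 250 with a mean level above 0, 99 with genes averaged over their probes, 1 with the replicate number as a block, and 3 to 690 when 1 array was left out (12, 14, 3 and 6 without infarcted replicates 1 to 4, and 51, 84, 33 and 690 without sham control replicates 1 to 4). The Z-disc and stress genes had 0 called spots, and 1 (Csrp3) with a mean level above 0 (-0.98, adjusted p = 0.0353) and without sham control replicate 4 (-1.04, adjusted p = 0.0377), with -1.04 to -0.89 over all arrays left out, so that leaving out 1 array gave 0 to 1. Ankrd1, Xirp1, Csrp3 and Ldb3 spot 19372 kept their direction under all 17 alternatives, with ranges of 0.23 to 1.34, -0.37 to -0.01, -1.04 to -0.05 and -1.02 to -0.11. Under quantile normalization and loess the sign turned for Actn2 (0.59 and 0.69), Myoz2 (0.13 and 0.19), Pdlim5 spot 31631 (0.58 and 0.66), Ldb3 spot 13772 (0.39 and 0.35), Ldb3 spot 24972 (0.37 and 0.43), Sqstm1 (0.27 and 0.25), Nbr1 (0.01 and 0.032), Ckm (0.23 and 0.33) and the Ttn spots 15210 (0.001 and 0.034) and 9610 (0.72 and 0.73). All lie above the block median, and both methods remove the trend with level. With genes averaged over their probes Pdlim5 stood at -1.004, Ttn at 0.12, Itga7 at 0.62, Tpm1 at 0.35 and Flt1 at -0.72. These averages take in all spots of a gene, also those with too few values to be tested. For Ttn, Itga7, Tpm1 and Flt1 the source of the shift was not tested. Ldb3 spot 13772 ran from -0.33 to 0.11 when 1 array was left out, with 0.09, 0.04 and 0.11 without infarcted replicate 3, infarcted replicate 4 and sham control replicate 3. Leaving out 1 array gave -0.061 to 0.51 for Ttn spot 15102 and -0.022 to 0.17 for Tpm1 spot 4412, both lowest without sham control replicate 2, and -0.047 to 0.44 for Pecam1 spot 11029, lowest without sham control replicate 1; the cause was not tested. The deviations of same-numbered arrays correlated at 0.04, 0.31, -0.09 and -0.20 for numbers 1 to 4, and infarcted replicate 4 correlated best with sham control replicate 3 (0.33). These correlations cannot decide whether the replicate numbers pair the samples. With the replicate block Csrp3 stood at -0.98 (adjusted p = 0.196), and 0 of the 10 spots were called. Of 68 named spots outside the 10 genes, 24 moved by over 1.5 times when 1 array was left out.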

Other observations

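Among the pool-tissue markers, several spots of genes that heart muscle is not known to use were well above the block median. Of the 33 tested spots, 7 were below it in both groups. Beside Prm2, the liver and choroid plexus transport protein Ttr stood at 2.94 ± 0.27 on infarcted arrays and 4.17 ± 0.25 on sham control arrays (SD, n = 4 each), a change of -1.22 ± 0.24 (SE, limma adjusted p = 0.0505). All 7 spots of testis genes had negative changes, with a median of -1.20. Of them, 5 were lower on all infarcted arrays, where 6.33% of all tested spots were. The 1 tested kidney spot was positive at 0.49. Liver markers were negative in 8 of 8 spots (median -0.95), lung markers in 3 of 3 (-1.19) and stomach markers in 5 of 5 (-1.11). Brain markers had 2 positive and 3 negative spots (median -0.275), and spleen markers 2 and 2 (-0.15). The median level of both these lists was below the block median in each group. The alpha globin Hba-a1, present in blood of any organ, stood at -1.74 ± 0.32 (adjusted p = 0.0505; 4 infarcted and 3 sham control values). After quantile normalization the median of the 33 spots was -0.66.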
